A study of Homo sapiens with 8 samples.

Results

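Genes of DNA mismatch repair were followed, namely MSH6, MSH3, PMS2, PMS1, MLH3 and EXO1, taken as the 6 rows of the deposited count table with these names out of 57169 rows. RNA was measured by poly(A) RNA sequencing in 8 libraries from SW620 and HCT116, both established human colon cancer lines. Each line received AFZC or 5-FU for 24 h at the IC50 of that line, and every group had 2 libraries. 5-FU is 5-fluorouracil, an antimetabolite that blocks thymidylate synthesis and is built into RNA and DNA. Per the series title the nanodrug is 5-fluorouracil carried in an aptamer-modified metal-organic framework, so both treatments hold that drug, and no untreated cells are among the 8 libraries. The 4 groups were therefore AFZC-treated SW620, 5-FU-treated SW620, AFZC-treated HCT116 and 5-FU-treated HCT116.

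Mismatch repair removes mispaired bases and small loops left by DNA polymerases. MutS complexes recognise the error: MSH6 is the subunit for single mismatches and short loops, and MSH3 the subunit for larger loops. MutL complexes act next: PMS2 forms the main nicking complex, while PMS1 and MLH3 are alternative subunits, MLH3 being best known from meiotic crossing over. EXO1 is the exonuclease that removes the strand carrying the error, which is then refilled by DNA polymerase delta and sealed by a ligase. HCT116 is known to be mismatch-repair deficient, SW620 is known as a microsatellite-stable line, and mismatch repair proteins are known to recognise 5-FU in DNA.

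Library totals ran from 31991561 to 40590291 counts. The labelled cell type was checked on 8 colorectal epithelial markers: EPCAM was at 329.3 to 764.5 TPM (counts per exon length, scaled to the same sum in every library) and KRT8 at 827.9 to 3466 TPM over the 8 libraries. CDH1 was at 66.98 to 525.6 TPM, KRT18 at 530.7 to 2992 TPM and CDX2 at 15.96 to 46.93 TPM, while CDX1 did not pass 0.513 TPM. VIL1 was at 124.7 to 178.7 TPM in SW620 and at 0 to 0.889 TPM in HCT116. KRT20 was at 63.2 and 27.2 TPM in AFZC-treated SW620, against 3.747 and 3.745 TPM in 5-FU-treated SW620. In HCT116 KRT20 was at 2.55 to 4.86 TPM. PTPRC, the defining leukocyte marker, stayed at or below 0.023 TPM everywhere. LYZ was at 91.8 and 35.0 TPM in AFZC-treated SW620, against 9.13 and 12.5 TPM in 5-FU-treated SW620. Of 5 fibroblast markers, LUM was at 27.3 to 57.5 TPM in SW620 and at 0 in HCT116. COL1A1 was at 6.97 to 11.5 TPM in SW620 and 13.9 to 18.6 TPM in HCT116, and COL1A2 and DCN did not pass 0.052 TPM. PDGFRB was at 5.56 and 5.04 TPM in AFZC-treated SW620, 0.882 and 0.92 TPM in 5-FU-treated SW620 and 0.201 to 0.524 TPM in HCT116. The summed CPM of 3 endothelial markers was 20.3 and 14.5 in AFZC-treated SW620, against 4.77 and 4.29 in 5-FU-treated SW620, and 3.20 to 5.51 in HCT116. Their part in the results was not tested. In bulk RNA, fewer cells of a type and less RNA per cell cannot be told apart.

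All coordinates are on GRCh38. MSH6 (chr2:47695530-47810101, plus strand), MSH3 (chr5:80654648-80876460, plus), PMS1 (chr2:189784085-189877629, plus) and EXO1 (chr1:241847967-241895148, plus) share a strand, and PMS2 (chr7:5973239-6009125) and MLH3 (chr14:75013764-75051532) lie on the minus strand. Merged over transcripts, MSH6 has 18 exons, MSH3 26, PMS1 17, EXO1 19, PMS2 14 and MLH3 15. Neighbours on the other strand start 286 bases from the start of PMS1 (ORMDL1) and 120 bases from that of PMS2 (AIMP2). Genes beside or overlapping MSH3 are not reported here.

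The start regions are shown because members with and without the same letters there can be set beside their levels. RefSeq promoters (250 bases before to 50 after each start, GRCh38.p14) were available for all 6 members and were searched on both strands for the E2F-type letters TTTCCCGC, TTTCGCGC, TTTGCCGC and TTTGGCGC, a motif class of S-phase genes. MSH3, MSH6, PMS2 and EXO1 held a match and MLH3 and PMS1 did not, against 3.33% of 27305 promoters with a match. The 4 matches are shown with 15 bases on each side, 5′ to 3′ on the strand of the gene, with the matched letters in capitals.
MSH3, chr5:80654530-80654571, plus strand: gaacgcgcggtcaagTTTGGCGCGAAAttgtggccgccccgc
MSH6, chr2:47783133-47783170, plus strand: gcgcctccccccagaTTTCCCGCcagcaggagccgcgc
PMS2, chr7:6009127-6009164, minus strand: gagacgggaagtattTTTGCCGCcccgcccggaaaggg
EXO1, chr1:241848193-241848230, plus strand: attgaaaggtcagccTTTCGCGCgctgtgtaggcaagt
In MSH3 the 12 capitals hold 2 overlapping matches, one on each strand, that begin 107 bases before the start. The PMS2 match begins 43 bases before the start, and those of MSH6 and EXO1 begin 3 and 4 bases after it. CCAAT, another common promoter element, was found in MSH6, PMS1 and PMS2 and in 35.7% of all promoters. The letters TTTGAA (the CHR motif) were also searched and were found in none of the 6 members and in 15.4% of all promoters. A match is a string of letters and shows no binding.

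The longest runs of a single base in the coding sequence are shown because such runs are known sites of slippage in mismatch-repair-deficient tumours, and several lie in mismatch repair genes themselves. They were read from GENCODE 29 transcripts, with the run in capitals and 10 bases on each side, on the strand of the gene.
MLH3, exon 2, chr14:75047891-75047919, minus strand: agagaaagagAAAAAAAAAgaatctagca
MSH3, exon 7, chr5:80675086-80675113, plus strand: tgttagggacAAAAAAAAgggcaacatt
PMS2, exon 11, chr7:5987516-5987543, minus strand: actggagaagAAAAAAAAgacgtgtcca
MSH6, exon 5, chr2:47803491-47803518, plus strand: ccggaagataCCCCCCCCttcttagagc
The run is 9 bases long in MLH3 and 8 in MSH3, PMS2 and MSH6, while the longest runs of PMS1 and EXO1 have 7 bases. Counts per gene carry no alleles, so the state of these runs in the lines was not analysed here.

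A few patterns stood out among the members. MSH3 RNA was several-fold higher in SW620 than in HCT116 under both treatments. EXO1 RNA was 6.54-fold higher after AFZC than after 5-FU in SW620, and its AFZC effect differed between the lines. MSH6 was lower after AFZC than after 5-FU in HCT116 and not in SW620, and that difference between the lines also passed the test. Values per library are CPM (counts per 1e+06 of the library total) after scaling with TMM factors, and tests are edgeR's quasi-likelihood test, adjusted by Benjamini-Hochberg over 21378 genes, with calls at an adjusted p under 0.05. All 6 members passed the filter on low counts.

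**Figure D1:**
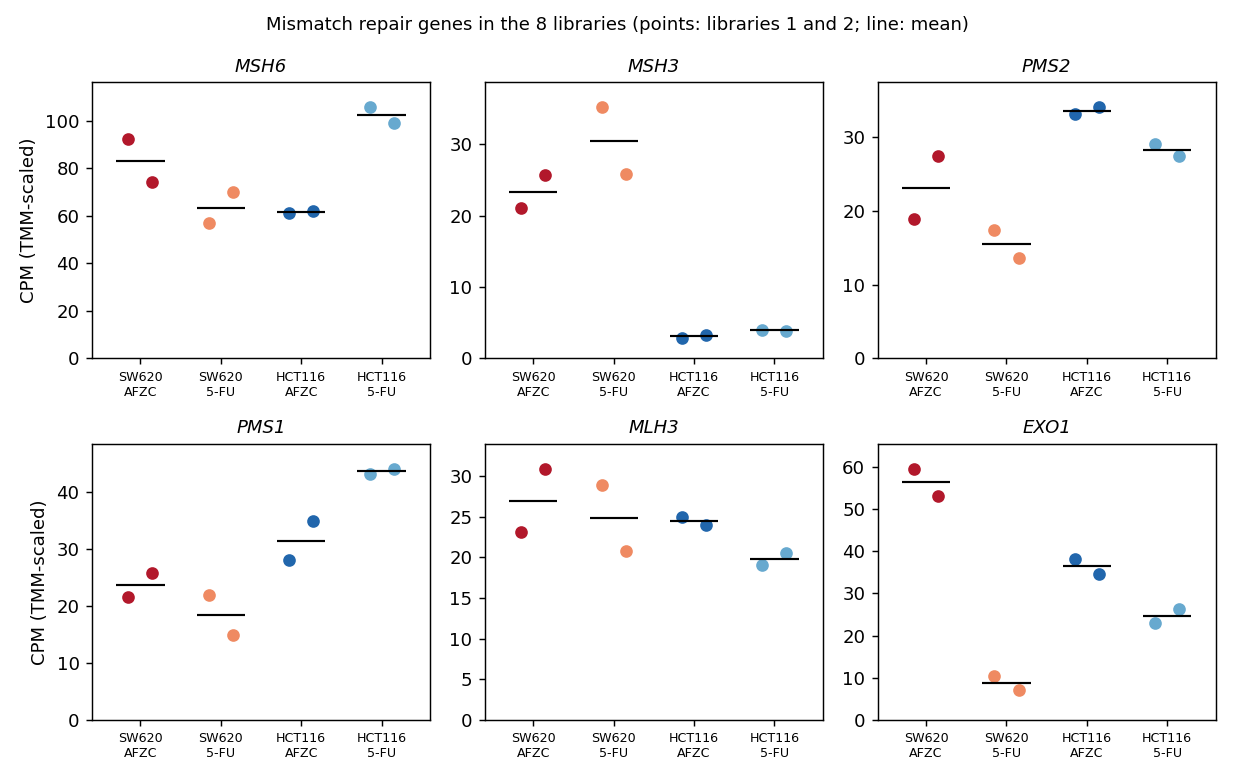
TMM-scaled CPM of the 6 members (vertical axes, each from 0) in the 4 groups; points are the 2 libraries of a group and lines their mean. MSH3 is at 21.03 to 35.2 CPM in SW620 and at 2.89 to 4.01 CPM in HCT116, and EXO1 is at 6.98 and 10.3 CPM in 5-FU-treated SW620 and at 23.0 CPM or more in the other groups.

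Compared per length, the members had different orders in the 4 groups. In AFZC-treated SW620 the order of mean TPM was EXO1 (54.1 ± 5.04, SD, n = 2 here and below), MSH6 (30.1 ± 5.02), PMS2 (23.3 ± 5.75), MSH3 (19.7 ± 2.53), PMS1 (17.2 ± 1.95) and MLH3 (12.8 ± 2.45). In 5-FU-treated SW620 MSH3 (19.0 ± 4.73) and MSH6 (16.9 ± 1.87) led, and EXO1 was last (6.14 ± 1.86). Divided by the length of the principal transcript instead, MSH6 (7.12 ± 0.722 CPM per kb) was above MSH3 (6.30 ± 1.62) there. EXO1 stood apart from MSH6 in AFZC-treated SW620, whereas the neighbours MSH6 and PMS2, and PMS2 and MSH3, lay within their spread of each other.

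In AFZC-treated HCT116 EXO1 (28.7 ± 0.511 TPM) and PMS2 (27.8 ± 2.07 TPM) were highest and within their spread of each other. In 5-FU-treated HCT116 MSH6 (30.2 ± 0.458 TPM) led, ahead of PMS1 (25.99 ± 1.96 TPM). MSH3 was last in both HCT116 groups, at 2.15 ± 0.320 TPM after AFZC and 2.70 ± 0.0724 TPM after 5-FU. The 6 members together came to 157.0 TPM in AFZC-treated SW620 and 72.3 TPM in 5-FU-treated SW620. In HCT116 they came to 105.4 TPM after AFZC and 109.3 TPM after 5-FU. TPM is not scaled with TMM factors, which were 1.11 and 1.07 in AFZC-treated SW620 and 0.867 and 0.816 in 5-FU-treated SW620. The size of the gap between the SW620 sums therefore depends on scaling. EXO1 made up 34.5% of the sum in AFZC-treated SW620 and 8.39% in 5-FU-treated SW620. With 2 libraries a group, an exact permutation test of such levels cannot go below p = 0.333, so TPM levels and ratios are given without a test.

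The mismatch recognition subunits were MSH6 and MSH3. MSH6 was at 61.1 and 62.3 CPM in AFZC-treated HCT116, against 105.7 and 99.1 CPM in 5-FU-treated HCT116. The groups did not overlap, and the log2 fold change was -0.73 ± 0.16 (SE; adjusted p = 0.0141, edgeR). In SW620 MSH6 was at 92.3 and 74.1 CPM after AFZC, against 57.0 and 69.9 CPM after 5-FU. All AFZC values were the higher ones here, yet the change of 0.39 ± 0.16 did not pass the test (adjusted p = 0.111, edgeR).

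The AFZC effect on MSH6 differed between SW620 and HCT116 by 1.12 ± 0.23 on the log2 scale (adjusted p = 0.00908, edgeR). Under 5-FU MSH6 was lower in SW620 than in HCT116 by a log2 change of -0.69 ± 0.16 (adjusted p = 0.00291, edgeR), while under AFZC it was higher by 0.43 ± 0.16 (adjusted p = 0.0406, edgeR). The MSH6 call in HCT116 rested on few libraries: its adjusted p was 0.0648 without AFZC-treated HCT116 library 1, 0.136 without 5-FU-treated HCT116 library 1 and 0.0624 without library 2 of the same group. Without 5-FU-treated HCT116 library 1 the difference between the lines had an adjusted p of 0.055 and a size of 1.07. The call under AFZC was lost in 7 of the 8 fits with a library left out (log2 change of 0.27 to 0.59). It was also lost with DESeq2 (adjusted p = 0.0515). With edgeR it was lost with only the groups of the contrast fitted (adjusted p = 0.0913) and with a replicate block (adjusted p = 0.0539).

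Of the MSH6 exon bases, 16.24% (1785 bases) are shared with FBXO11 on the other strand, and the libraries did not keep the strand. These bases are 23.88% of the principal MSH6 transcript, and their part in the MSH6 values was not tested. FBXO11, a subunit of a ubiquitin ligase, had 38.6 and 37.6 CPM in AFZC-treated HCT116, against 36.5 and 39.3 CPM in 5-FU-treated HCT116, so it overlapped between these groups, in which MSH6 did not. In SW620 it had 32.8 and 29.6 CPM after AFZC, against 39.7 and 39.4 CPM after 5-FU, without overlap (log2 -0.34 ± 0.15, adjusted p = 0.143, edgeR).

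MSH3 was at 21.03 and 25.7 CPM in AFZC-treated SW620, against 2.89 and 3.30 CPM in AFZC-treated HCT116. Under 5-FU it was at 35.2 and 25.8 CPM in SW620, against 4.01 and 3.82 CPM in HCT116. Every SW620 library lay above every HCT116 library, by 7.54-fold under AFZC (log2 2.92 ± 0.24, adjusted p = 7.73e-07, edgeR) and by 7.79-fold under 5-FU (log2 2.96 ± 0.24, adjusted p = 4.93e-07, edgeR). The SW620 values rested on 747 to 1021 counts a library and the HCT116 values on 109 to 139, and the call held in every alternative fit.

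Between the treatments MSH3 moved little against its error. The log2 change of AFZC over 5-FU was -0.38 ± 0.22 in SW620 (adjusted p = 0.254, edgeR) and -0.34 ± 0.24 in HCT116 (adjusted p = 0.432, edgeR). The difference between these effects was -0.05 ± 0.33 (adjusted p = 0.986, edgeR), an error that leaves room for differences of either sign.

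Within a library, where scaling between libraries plays no part, the ratio of MSH3 to MSH6 TPM was 0.532 and 0.809 in AFZC-treated SW620 and 1.44 and 0.862 in 5-FU-treated SW620. It was 0.110 and 0.124 in AFZC-treated HCT116 and 0.0885 and 0.0900 in 5-FU-treated HCT116. MSH3 RNA was thus a minor part of the pair in every HCT116 library and of the same order as MSH6 in SW620. MSH3 made up 12.5% and 26.2% of the summed TPM of the 6 members in SW620 after AFZC and 5-FU, and 2.04% and 2.47% in HCT116 after AFZC and 5-FU. The ratio depends on gene length: with the length of the principal transcript it was 0.0916 in AFZC-treated HCT116 and 0.0698 in 5-FU-treated HCT116, against means of 0.117 and 0.0893 with the deposited lengths.

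**Figure D2:**
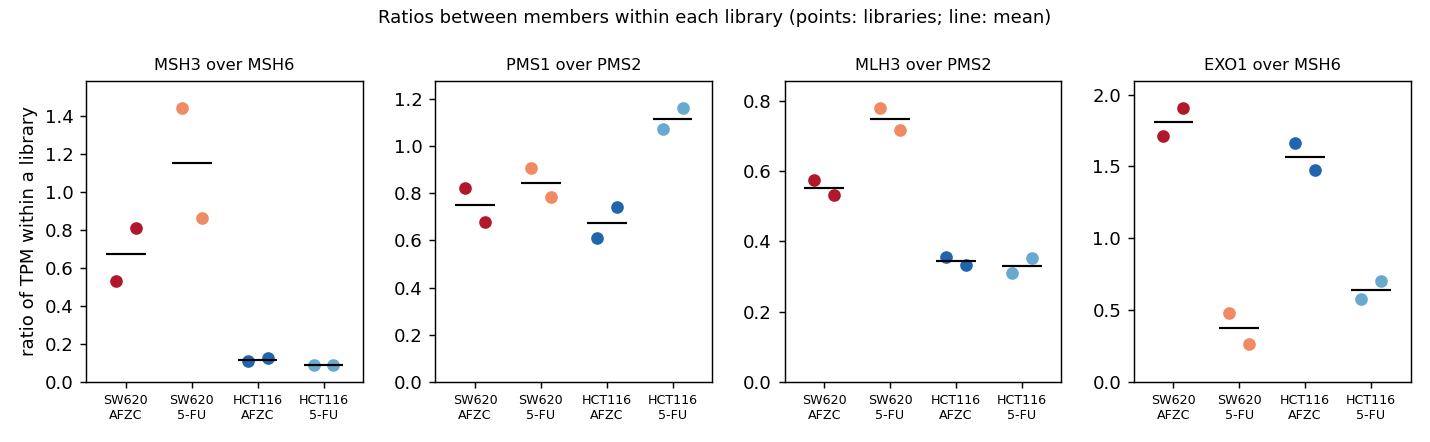
Ratios of TPM between members within each library (vertical axes from 0), by group; points are libraries and lines their mean. MSH3 over MSH6 lies between 0.532 and 1.44 in SW620 and between 0.0885 and 0.124 in HCT116, and EXO1 over MSH6 is at least 1.47 after AFZC and at most 0.705 after 5-FU in both lines.

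Among the MutL subunits, PMS2 was at 18.9 and 27.3 CPM in AFZC-treated SW620, against 17.4 and 13.7 CPM in 5-FU-treated SW620. Both AFZC values were higher, and the log2 change of 0.57 ± 0.21 did not pass the test (adjusted p = 0.076, edgeR). In HCT116 PMS2 was at 33.1 and 34.0 CPM after AFZC, against 29 and 27.4 CPM after 5-FU (log2 0.25 ± 0.21, adjusted p = 0.509, edgeR). PMS2 was lower in SW620 than in HCT116 by a log2 change of -0.86 ± 0.21 under 5-FU (adjusted p = 0.00385, edgeR) and of -0.54 ± 0.21 under AFZC (adjusted p = 0.0469, edgeR).

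PMS2 is known for near-identical copies in the genome, and 11 such pseudogene rows were in the table, so its level is uncertain. The copies held 59.32% to 68.81% of the summed counts of PMS2 and its copies in SW620, against 53.21% to 54.88% in HCT116. Summed with the copies, the log2 change of SW620 over HCT116 was -0.45 under 5-FU (adjusted p = 0.0338, edgeR) and -0.30 under AFZC (adjusted p = 0.141, edgeR), which ends the second call and moves the first by over 1.5 times. The call under AFZC was also lost in 7 of the 8 fits with a library left out. Without 5-FU-treated SW620 library 2, the call under 5-FU was lost as well (adjusted p = 0.0555, edgeR). Without AFZC-treated SW620 library 1, PMS2 passed the test for AFZC against 5-FU in SW620 (adjusted p = 0.0226, edgeR).

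PMS1 was at 28.0 and 34.9 CPM in AFZC-treated HCT116, against 43.1 and 44.0 CPM in 5-FU-treated HCT116. The groups did not overlap, but the log2 change of -0.47 ± 0.21 did not pass the test (adjusted p = 0.180, edgeR). In SW620 it was at 21.5 and 25.8 CPM after AFZC, against 21.9 and 14.8 CPM after 5-FU, with overlapping groups (log2 0.37 ± 0.21, adjusted p = 0.253, edgeR). The difference between these effects was 0.84 ± 0.30 (adjusted p = 0.0949, edgeR), and it passed without 5-FU-treated SW620 library 1 (adjusted p = 0.0449, edgeR).

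Under 5-FU PMS1 was lower in SW620 than in HCT116 by a log2 change of -1.25 ± 0.21 (adjusted p = 0.000272, edgeR). Under AFZC the change was -0.41 ± 0.21 (adjusted p = 0.12, edgeR). The ratio of PMS1 to PMS2 TPM was 0.612 and 0.741 in AFZC-treated HCT116, against 1.07 and 1.16 in 5-FU-treated HCT116, so PMS1 was below PMS2 in the AFZC libraries of this line and above it in the 5-FU libraries. In SW620 it was 0.824 and 0.680 after AFZC, against 0.907 and 0.784 after 5-FU, with overlap.

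MLH3 passed no test. It was at 23.1 and 30.9 CPM in AFZC-treated SW620, against 28.9 and 20.8 CPM in 5-FU-treated SW620, and at 24.9 and 24.0 CPM in AFZC-treated HCT116, against 19.0 and 20.6 CPM in 5-FU-treated HCT116. Its log2 change lay between 0.12 and 0.33 in the 4 pairwise comparisons, each with an SE of 0.21, and its smallest adjusted p was 0.206 (edgeR). Per length, MLH3 over PMS2 was 0.576 and 0.532 in AFZC-treated SW620 and 0.779 and 0.717 in 5-FU-treated SW620, against 0.309 to 0.355 in the 4 HCT116 libraries.

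The neighbours ORMDL1 and AIMP2 had values of their own. ORMDL1, a regulator of sphingolipid synthesis, was higher in SW620 than in HCT116 under AFZC (log2 0.55 ± 0.21, adjusted p = 0.0433, edgeR), where PMS1 was at -0.41. That call was lost in 6 of the 8 fits with a library left out, and the change was 0.26 without AFZC-treated SW620 library 2 and 0.36 without AFZC-treated HCT116 library 1. Under 5-FU, where PMS1 was at -1.25, ORMDL1 was at 0.42 ± 0.21 (adjusted p = 0.104, edgeR). AIMP2, a scaffold of the aminoacyl-tRNA synthetase complex, was not called with all libraries, with log2 changes of -0.04 to 0.33 in the 4 pairwise comparisons. Without AFZC-treated SW620 library 1 it was higher in SW620 than in HCT116 under AFZC (log2 0.69, adjusted p = 0.0272, edgeR). ORMDL1 had 1.56 to 3.36 counts for each PMS1 count in SW620, against 0.721 to 0.912 in HCT116. AIMP2 had 0.885 to 1.41 counts for each PMS2 count in SW620 and 0.540 to 0.707 in HCT116.

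**Figure D3:**
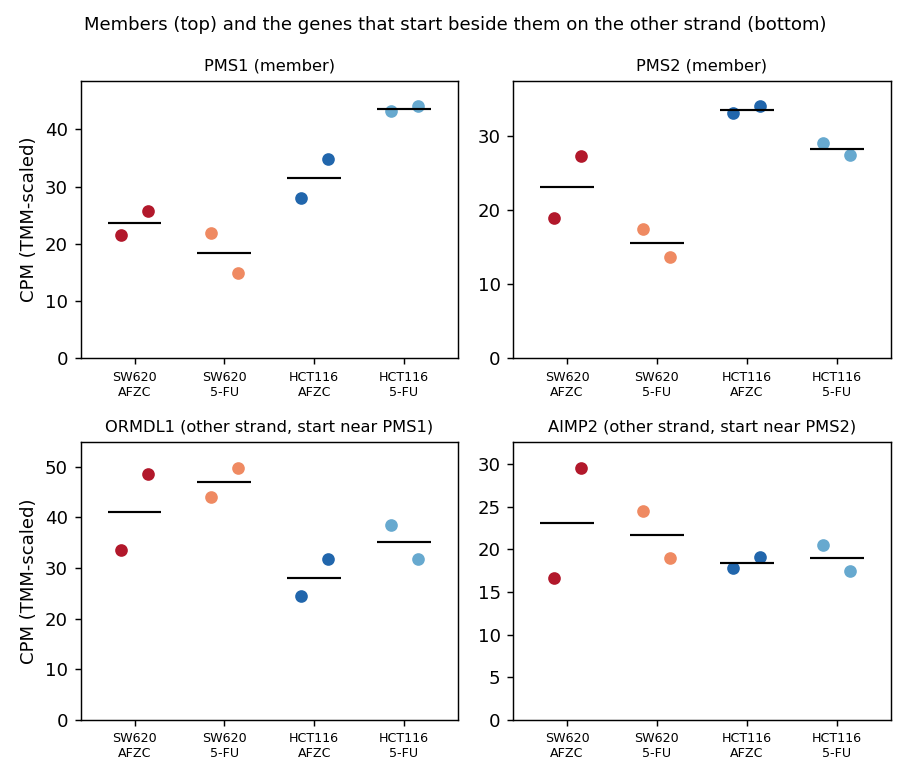
TMM-scaled CPM (vertical axes from 0) of PMS1 and PMS2 in the top row and of the genes that start beside them on the other strand, ORMDL1 and AIMP2, in the bottom row; points are libraries, lines the group mean. PMS2 is at 13.7 to 27.3 CPM in SW620 and at 27.4 CPM or more in HCT116, whereas AIMP2 overlaps between the lines.

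EXO1, the exonuclease of the pathway, was at 59.6 and 53.2 CPM in AFZC-treated SW620, against 10.3 and 6.98 CPM in 5-FU-treated SW620. The log2 change was 2.71 ± 0.21 (adjusted p = 7.67e-06, edgeR), and it was called in every alternative fit, with sizes of 2.45 to 3.08. In HCT116 EXO1 was at 38.3 and 34.5 CPM after AFZC, against 23.0 and 26.3 CPM after 5-FU. These groups did not overlap either, but the change of 0.56 ± 0.20 did not pass the test (adjusted p = 0.0921, edgeR).

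The AFZC effect on EXO1 was larger in SW620 than in HCT116 by 2.15 ± 0.28 on the log2 scale (adjusted p = 0.000746, edgeR), in every alternative fit. EXO1 was lower in SW620 than in HCT116 under 5-FU (log2 -1.52 ± 0.20, adjusted p = 4.06e-05, edgeR) and higher under AFZC (log2 0.63 ± 0.19, adjusted p = 0.0167, edgeR). The second call was lost without AFZC-treated HCT116 library 2 (adjusted p = 0.0743, edgeR) or AFZC-treated SW620 library 1 (adjusted p = 0.0698, edgeR). EXO1 over MSH6 TPM was 1.71 and 1.90 in AFZC-treated SW620, against 0.479 and 0.265 in 5-FU-treated SW620, and 1.66 and 1.47 in AFZC-treated HCT116, against 0.579 and 0.705 in 5-FU-treated HCT116. With the length of the principal transcript this ratio was 1.19 to 1.54 in the AFZC libraries and 0.215 to 0.572 in the 5-FU libraries of both lines.

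Proliferation genes moved with EXO1 in SW620. The summed CPM of 12 proliferation markers, over library totals, was 3591 and 2626 in AFZC-treated SW620, against 815.7 and 666.9 in 5-FU-treated SW620, and 1677 and 2355 in AFZC-treated HCT116, against 1701 and 1958 in 5-FU-treated HCT116. In SW620, 11 of the 12 were higher after AFZC, against 11.6% of all tested genes, and the median log2 change of the 12 was 1.65. The 11 included the replicative helicase subunits MCM4 (2.52) and MCM5 (2.26) and the cycling-cell marker MKI67 (2.45). In HCT116 MCM6 (-0.72) and MCM7 (-0.57) were lower with edgeR and 0 markers were higher. At an unadjusted edgeR p under 0.05, 2 markers were higher and 5 lower. Of all tested genes, 5.87% were higher and 3.74% lower in HCT116. DESeq2 called CDK1 (0.57, adjusted p = 0.0373) and MKI67 (0.93, adjusted p = 0.00966) higher. With edgeR and no filter on low counts, 2 markers were higher and 4 lower. Without either 5-FU-treated HCT116 library the edgeR calls of MCM6 and MCM7 were lost (MCM6 at -0.71 without library 1 and -0.75 without library 2). The MCM7 call was also lost with library totals only (adjusted p = 0.0622, edgeR) and with a replicate block (adjusted p = 0.0589, edgeR). It was lost as well without AFZC-treated HCT116 library 1 (-0.42) and without either 5-FU-treated SW620 library (-0.57 each). The part of proliferation in the EXO1 result was not tested.

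**Figure D4:**
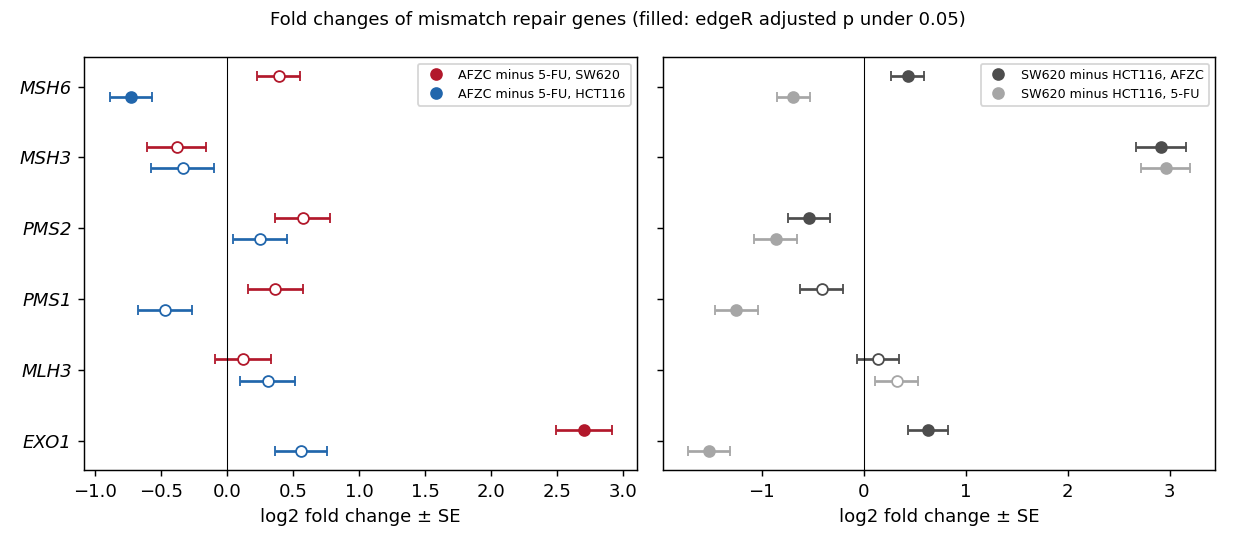
Log2 fold changes ± SE of the members (horizontal axes), for AFZC minus 5-FU in each line at left and SW620 minus HCT116 under each treatment at right; filled points have an edgeR adjusted p under 0.05. EXO1 is at 2.71 in SW620 for AFZC, and MSH3 is at 2.92 and 2.96 for SW620 minus HCT116.

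The members called in each comparison were counted beside all genes. For AFZC against 5-FU in SW620, 1 of the 6 was called, higher, where 18.6% of all tested genes were called (11.6% higher and 6.95% lower), and the median log2 change was 0.38 for the members and 0.03 for all genes. Scaled by library totals alone, which moves the median of all genes there to 0.40, MSH6 (0.77), PMS1 (0.73) and PMS2 (0.94) passed as well. In HCT116, 1 of the 6 was called, lower, where 9.61% of all genes were called (5.87% higher and 3.74% lower), and the medians were -0.04 and 0.00. In the difference of the AFZC effects, 2 of the 6 were called, both higher, where 9.78% of all genes were called (5.65% higher and 4.14% lower), and the medians were 0.58 and 0.04.

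Between the lines, 4 of the 6 were called under AFZC, 3 higher and 1 lower in SW620, where 49.3% of all genes were called (25.1% higher and 24.2% lower). Under 5-FU 5 of the 6 were called, 1 higher and 4 lower, where 54.8% of all genes were called (26.5% higher and 28.2% lower). These comparisons share libraries with those of the treatments. A call between the lines was common among all genes.

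The genes that act with the members were taken as 16 genes of excision, resynthesis and ligation. In SW620, 12 of the 16 were higher after AFZC than after 5-FU, where 11.6% of all tested genes were higher. The list had 0 lower genes (0 also at an unadjusted edgeR p under 0.05 and with DESeq2), against 6.95% of all tested genes. Its median log2 change was 1.07, and 11 to 12 were higher in the alternative fits. PCNA, the sliding clamp that couples MutL to replication, was at 217.2 and 210.6 CPM after AFZC, against 54.3 and 50.7 CPM after 5-FU (log2 2.03 ± 0.17, adjusted p = 1.06e-05, edgeR). POLD3, a subunit of DNA polymerase delta (1.83 ± 0.18), and the ligase LIG1 (1.81 ± 0.21) followed in size.

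In HCT116, PCNA was the only gene of the 16 that passed, at 426.1 and 344.0 CPM after AFZC, against 177.7 and 147.7 CPM after 5-FU (log2 1.24 ± 0.17, adjusted p = 0.000884, edgeR). Of all tested genes, 9.61% were called in that line. There LIG1 was at 44.7 and 62.0 CPM after AFZC and at 51.3 and 50.8 CPM after 5-FU. The AFZC effect was higher in SW620 than in HCT116 for 9 of the 16, and for 5.65% of all tested genes. RFC5, a subunit of the clamp loader (1.86 ± 0.24), POLD3 (1.80 ± 0.25) and LIG1 (1.75 ± 0.29) had the largest differences. The PCNA difference of 0.78 ± 0.23 did not pass (adjusted p = 0.051, edgeR), though it did with DESeq2 (adjusted p = 0.019). In SW620 the summed CPM of the proliferation markers moved with this list too. In HCT116 the sum of this list was 1308 and 1254 CPM after AFZC, against 1046 and 1009 CPM after 5-FU. That sum includes PCNA, the only gene of the list that passed there, and the median log2 change of the 16 was 0.02. The proliferation sum overlapped there (1677 and 2355 CPM, against 1701 and 1958 CPM). The part of proliferation was not tested.

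Under 5-FU 3 of the 16 were higher and 9 lower in SW620 than in HCT116, with LIG1 at -2.15 ± 0.21. Of all tested genes, 26.5% were higher and 28.2% lower there. Under AFZC 11 of the 16 were higher and 1, PCNA, was lower (-0.85 ± 0.16), against 25.1% and 24.2% of all tested genes. POLD4, the smallest subunit of polymerase delta, was higher in SW620 under both treatments, by 1.83 ± 0.28 under AFZC and by 2.67 ± 0.29 under 5-FU. RPA4, a form of the single-strand binding protein RPA, was called higher as well but rested on 12 to 25 counts in each SW620 library and 2 in each HCT116 library, and its call under 5-FU was lost without 5-FU-treated SW620 library 2 (adjusted p = 0.0595, edgeR).

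**Figure D5:**
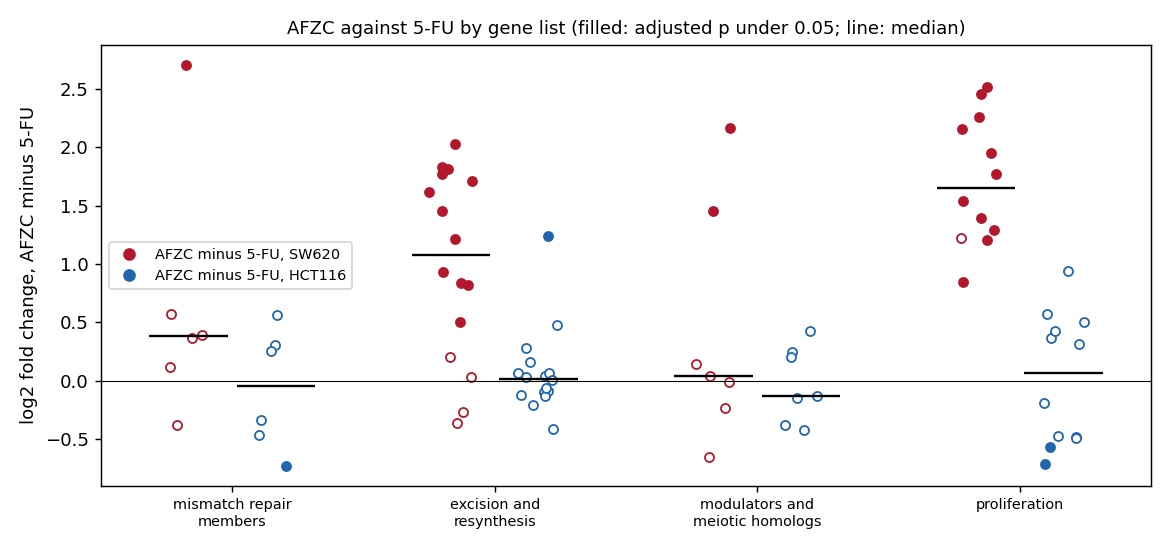
Log2 fold changes of AFZC minus 5-FU (vertical axis) in SW620 (red, left of each pair) and HCT116 (blue), by gene list; each point is a gene, filled where the edgeR adjusted p is under 0.05, and lines are medians. The excision and resynthesis genes have medians of 1.07 in SW620 and 0.02 in HCT116, and the proliferation markers 1.65 and 0.06.

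A further list held 7 meiotic homologs and modulators of the pathway. It gave 2 calls in SW620 for AFZC against 5-FU, both higher, where 11.6% of all tested genes were higher and 6.95% lower. In HCT116 it gave 0 calls with edgeR, where 9.61% of all tested genes were called. It also gave 0 calls there in every alternative fit, DESeq2 included. In that line 2 genes of the list had an unadjusted edgeR p under 0.05, 1 of them higher and 1 lower. MCM8, a helicase, was at 117.4 and 122.0 CPM in AFZC-treated SW620, against 29.5 and 24.0 CPM in 5-FU-treated SW620 (log2 2.16 ± 0.16, adjusted p = 7.65e-06, edgeR). MSH5, a meiotic MutS homolog, was at 6.50 and 5.94 CPM, against 2.20 and 2.33 CPM in the same groups (log2 1.46 ± 0.28, adjusted p = 0.00321, edgeR). The AFZC effect on these 2 genes was higher in SW620 than in HCT116, by 1.92 ± 0.22 for MCM8 and 1.61 ± 0.38 for MSH5. The MSH5 difference lost its call in 5 of the 8 fits with a library left out, namely without AFZC-treated HCT116 library 1 (adjusted p = 0.0632, edgeR) or any 5-FU-treated library (adjusted p of 0.0577 to 0.0867, edgeR).

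MSH4, the meiotic partner of MSH5, had 2 to 4 counts in each SW620 library, against 89 to 151 in each HCT116 library. It was called lower in SW620 under both treatments (adjusted p = 6.16e-06 under AFZC and 4.79e-06 under 5-FU, edgeR). MSH4 is known from meiotic crossing over. HCT116 therefore had the lower MSH3 RNA and the higher MSH4 RNA of the lines.

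For each member the 3 tested genes with the most similar pattern over the 8 libraries were listed, as Pearson's r of log2 CPM among 12316 genes, as a description. EXO1 was closest to PKMYT1 (0.99), a kinase that restrains entry into mitosis, to the helicase gene BLM (0.99) and to NLRC5 (0.99). MSH3 was closest to EEPD1, STX4 and SLC39A5 (0.996 each), but its libraries form separate clusters by line, so r there mostly scores the gap between the lines. MSH6 was closest to YPEL1 (0.97), PMS1 to SIRT5 (0.99), PMS2 to TMEM70 (0.99) and MLH3 to TMEM185B (0.97).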

How the data were processed

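For all 8 libraries the authors deposited a table of raw counts by gene symbol, laid out as featureCounts writes it, per the file headers. Per the labels, poly(A) RNA was sequenced without keeping the strand. Tools in the submitters' processing notes are featureCounts, STAR, HISAT2, cutadapt, Trimmomatic, FastQC, edgeR and DESeq2, with the build GRCh38. The aligner behind the counts and the handling of multiply aligned reads were not stated. The number of genes at 2 counts was 1.678 to 1.842 times the number at 1; whether both mates of a fragment were counted was not tested.

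Counts passing filterByExpr (minimum count 10) were fitted with edgeR 4.0.16 in R 4.3.3, as 4 group means with TMM factors and robust quasi-likelihood (4 residual degrees of freedom, coefficient of variation 19.9%). The fit was tested on simulated data. TPM used the deposited gene lengths. DESeq2 1.42.0 was an alternative, as were other factors, no filter, the contrast's own groups, a replicate block, PMS2 with its copies and each library left out. Tests were two-sided. Named genes were the members, the 3 most similar genes of each, neighbours on the other strand and up to 3 called genes of each list. Not every gene that this rule names is reported here. Members and lists were chosen with earlier results of these data known. Whether libraries of a group were separate cultures is not in the labels, so a p-value reflects the spread between libraries, which may be technical. Within each group the libraries were no copies of each other, since their counts differed beyond sampling noise (chi-square over degrees of freedom, 20.9 to 51.5).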

Additional observations from a re-analysis of the deposited data

Results flagged for a closer look

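The AFZC effects of 2 members differed between the lines by a test of the difference itself. For EXO1 the effect on the log2 scale was 2.15 higher in SW620 than in HCT116, at 2.71 in SW620 and 0.56 in HCT116. For MSH6 it was 1.12 higher, at 0.39 in SW620 and -0.73 in HCT116.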

How the results depend on the processing

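No called fold change of a member or its neighbour changed sign in any alternative, but uncalled ones did, such as MLH3 for AFZC against 5-FU in SW620 (0.12, and -0.10 without AFZC-treated library 2). Scaling by library totals only moved the median of all genes for AFZC against 5-FU in SW620 to 0.40 (0.03 with TMM factors). It gave 5141 genes higher and 445 lower there and called 4 members higher, adding MSH6 (0.77), PMS1 (0.73) and PMS2 (0.94), and in the difference of the AFZC effects it gave 2455 higher and 430 lower. Without a filter on low counts, 1306 genes were lower in HCT116 (800 with it) and 1848 had a higher effect in SW620 (1207 with it). The single lower member under AFZC, PMS2, became 0 with library totals, with the contrast's own groups, with the replicate block and with PMS2 summed with its copies. Labels give the libraries replicate numbers, and deviations of equal numbers correlated by -0.102 to 0.095, so no strong shared replicate effect was visible. This cannot show whether libraries of equal number were handled together. The replicate block gave 0 lower members under AFZC, and MSH6 also lost its call there. In CPM not divided by length, MSH3 over MSH6 was 0.287 in AFZC-treated SW620, 0.493 in 5-FU-treated SW620, 0.0501 in AFZC-treated HCT116 and 0.0382 in 5-FU-treated HCT116; EXO1 over MSH6 averaged 0.681 in AFZC-treated SW620 and 0.590 in AFZC-treated HCT116, below 1 where TPM put it above 1. With the principal transcript's length, chosen after seeing the data, MSH3 over MSH6 was 0.901 in 5-FU-treated SW620 (1.15 in TPM), 0.0916 in AFZC-treated HCT116 and 0.0698 in 5-FU-treated HCT116, and PMS1 over PMS2 was 1.04 in 5-FU-treated SW620 (0.846 in TPM). Leaving out each library in turn gave 216 to 1509 genes higher and 89 to 1215 lower in HCT116, with 0 to 1 members lower. In SW620 it gave 1135 to 2703 higher and 448 to 1741 lower, with 1 to 2 members higher. In the difference of the effects it gave 478 to 1521 higher and 279 to 1112 lower, with 1 to 3 members higher. Between the lines under AFZC it gave 1 to 3 members higher and 0 to 1 lower, and under 5-FU 3 to 4 lower. A lone library left in a group is assumed to vary like the other groups. The cause of these changes was not tested.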
